A study of Mus musculus with 32 samples.

Results

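The comparison described here set atria of mice carrying both a dominant negative phosphoinositide 3-kinase and the kinase Mst1 (dnPI3K-Mst1) against atria of non-transgenic mice (Ntg), in the atria with little Bmp10 RNA. Arrays entered where Bmp10 lay below 9 log2, whatever their side label, which gave 8 arrays of the 32 in the study: 4 of dnPI3K-Mst1 and 4 of Ntg, each from a different animal. Each of the 16 animals of the study, 4 of each of 4 genotypes, had 1 array below this level and 1 above it. Bmp10 was 4.84, 4.68, 4.11 and 4.09 log2 in dnPI3K-Mst1 animals 1509, 1647, 1649 and 1650, and 5.03, 5.62, 4.74 and 4.86 log2 in Ntg animals 1301, 1657, 1662 and 1834, and all values per animal below follow this order. The highest member was thus at 5.62 log2, while the lowest Bmp10-high array of the same animals was at 12.23 log2. Because Bmp10 chose the arrays, its own difference is given as a description only.

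All mice shared a mixed C57BL/6 and FVB/N background and standard chow, and the Ntg mice carried neither transgene. Age, sex, transgene promoter and the exact PI3K construct are absent from the labels; published lines of these names drive both transgenes in cardiac myocytes through the alpha myosin heavy chain promoter. Total RNA of the whole atrium was hybridised, so fewer cells of a type and less RNA per cell cannot be told apart in any result below. Mst1 is a kinase of the Hippo cascade, in which it acts through LATS kinases to keep the coactivators YAP and TAZ away from the TEAD transcription factors; in heart muscle, raised Mst1 activity is known for myocyte death, chamber dilatation and fibrosis. PI3K relays signals of insulin and growth factors to the physiological growth and survival of myocytes, and atria with both changes have been studied as a model of atrial fibrillation. Bmp10, a secreted bone morphogenetic protein, is known in the adult mouse as a product of right atrial muscle. All 4 dnPI3K-Mst1 arrays were nevertheless labelled right, as were Ntg 1657 and 1834, while Ntg 1301 and 1662 were labelled left, so side label and genotype are partly confounded.

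Array medians of the members lay between 5.56 and 5.67 log2, and each member's mean correlation with the other 7 was between 0.974 and 0.980. The atrial marker Nppa was at 13.45, 13.52, 13.45 and 13.48 log2 in dnPI3K-Mst1 and at 13.26, 13.16, 13.36 and 13.37 log2 in Ntg, and the ventricular light chain Myl2 was under 5.3 log2 in every member except Ntg 1834 (7.65 log2). A few arrays stood apart. The brown fat gene Ucp1 reached 8.93 log2 in dnPI3K-Mst1 1650 and 8.38 log2 in Ntg 1301, against 4.45 to 5.09 log2 in the other 6 arrays. The mean of 24 macrophage and monocyte markers was 8.26 log2 in dnPI3K-Mst1 1647, against 7.24 to 7.60 log2 in the other dnPI3K-Mst1 arrays and 6.97 to 7.37 log2 in Ntg.

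**Figure D1:**
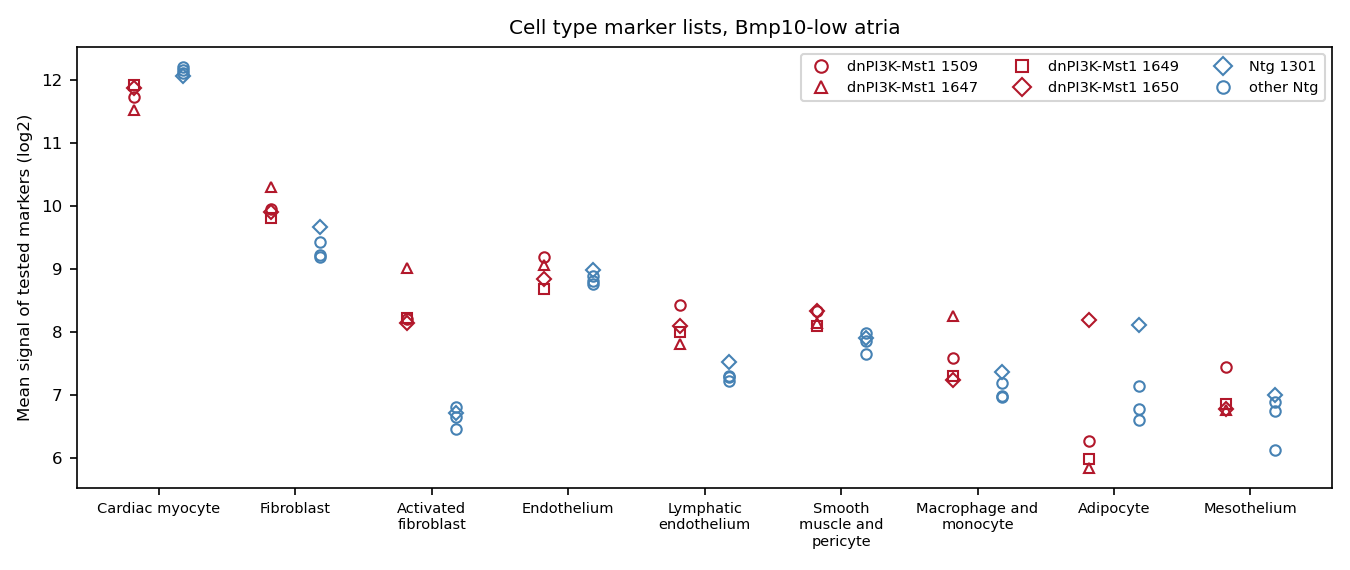
Mean log2 signal of the tested markers of 9 cell types in each Bmp10-low array, dnPI3K-Mst1 to the left of Ntg, 1 point per array. Activated fibroblast markers lay between 8.15 and 9.03 log2 in dnPI3K-Mst1, above the 6.46 to 6.81 log2 of Ntg, and dnPI3K-Mst1 1647 stood apart for fibroblast, macrophage and myocyte markers while dnPI3K-Mst1 1650 and Ntg 1301 stood apart for adipocyte markers.

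Stk4, the gene of Mst1, was higher in every dnPI3K-Mst1 array than in any Ntg array. It was at 8.12, 8.37, 8.25 and 8.37 log2 in dnPI3K-Mst1 and at 7.71, 7.53, 7.65 and 7.30 log2 in Ntg, and the groups did not overlap. The difference was 0.73 ± 0.11 log2 (SE, 4 against 4; limma, adjusted p = 0.000489). Pik3ca, the gene of the p110 alpha catalytic subunit of PI3K, was at 10.25, 9.96, 10.43 and 10.24 log2 in dnPI3K-Mst1 and at 9.18, 8.86, 9.37 and 9.34 log2 in Ntg, a rise of 1.03 log2. Pik3r1, the gene of its regulatory partner p85 alpha, fell by 0.57 log2 (adjusted p = 0.0069). Whether the probes read the transgene is not given by the labels, so these genes do not check the dnPI3K label.

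The question was how far transcript levels of the atrium had moved when both transgenes were present. Of 15219 genes tested, 4042 were called at an adjusted p under 0.05 (limma, Benjamini-Hochberg over all genes), which is 26.6%; 2174 (14.3%) were higher and 1868 (12.3%) lower in dnPI3K-Mst1. At least 2-fold changes numbered 266 higher (1.75%) and 303 lower (1.99%), and the median difference of all genes was 0.02 log2. The 4 arrays of each group did not overlap for 4371 genes (28.7%), 2407 of them higher (15.8%) and 1964 lower (12.9%). With the 2 right-labelled Ntg arrays alone as controls 2377 genes were called, and with the 2 left-labelled ones alone 2427. The shares of 14.3% higher and 12.3% lower are the background for every list count against Ntg in Bmp10-low atria below.

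The 4 largest rises were all in genes of secreted proteins. Thbs4, a thrombospondin of injured heart and tendon, was at 8.33, 9.03, 8.93 and 9.13 log2 in dnPI3K-Mst1 and at 5.17, 5.04, 5.56 and 4.91 log2 in Ntg. Its lowest dnPI3K-Mst1 array was far above its highest Ntg array, and it rose 12.9-fold (3.68 ± 0.18 log2, adjusted p = 1.04e-06). Nrg1, the neuregulin that activates ERBB receptors on myocytes, was at 9.49, 9.51, 9.16 and 9.15 log2 in dnPI3K-Mst1 and at 5.70, 5.73, 6.42 and 5.19 log2 in Ntg. It rose 11.9-fold, again with no overlap. Thbs1, a thrombospondin that can activate latent TGF-beta, was at 9.68, 11.23, 9.63 and 9.60 log2 in dnPI3K-Mst1 and at 6.51, 7.40, 7.03 and 6.11 log2 in Ntg, so that dnPI3K-Mst1 1647 stood above the other arrays of its group; it rose 9.67-fold. Edn1, the precursor of the vasoconstrictor endothelin 1, was at 9.42, 9.67, 8.68 and 9.23 log2 in dnPI3K-Mst1 and at 6.25, 6.21, 6.39 and 5.71 log2 in Ntg, a rise of 8.65-fold. The others among the 15 largest rises were Sfrp2 (8.26-fold) and Frzb (6-fold), both secreted Wnt binders, the BMP family ligands Gdf6 (7.67-fold) and Bmp4 (5.5-fold), Mmrn1, a platelet and lymphatic endothelial protein (6.43-fold), the mechanosensitive channel Piezo2 (5.79-fold), the matrix genes Ltbp2 (5.54-fold) and Cilp (5.33-fold), the Rac and Cdc42 effector Pak3 (5.33-fold), Ecrg4 (5.16-fold) and Sprr1a, a stress-induced gene of myocytes (5.07-fold).

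The 2 largest falls were in creatine kinases. Ckm, the cytosolic muscle creatine kinase, was at 6.90, 6.02, 6.92 and 7.02 log2 in dnPI3K-Mst1 and at 10.48, 10.71, 11.12 and 10.51 log2 in Ntg. Every dnPI3K-Mst1 array was below every Ntg array, dnPI3K-Mst1 1647 lowest, and the fall was 15.9-fold (-3.99 ± 0.21 log2, adjusted p = 1.42e-06). Ckmt2, its mitochondrial counterpart, was at 8.16, 6.84, 7.63 and 7.90 log2 in dnPI3K-Mst1 and at 11, 10.91, 11.36 and 10.93 log2 in Ntg, a fall of 10.7-fold. Hrc, which binds calcium inside the sarcoplasmic reticulum, was at 7.75, 7.10, 7.92 and 7.78 log2 in dnPI3K-Mst1 and at 10.48, 10.60, 10.62 and 10.40 log2 in Ntg, a fall of 7.41-fold. Lrtm1 (9.72-fold), the lipid-hydrolysing carboxylesterase Ces1d (8.57-fold), Ifi205 (6.24-fold), the integrin chain Itgb6 (5.85-fold), the myosin light chain kinase Mylk4 (5.71-fold), the potassium channel Kcnd2 (5.61-fold), the thin filament genes Tmod4 (5.37-fold) and Lmod3 (5.22-fold), the metalloprotease inhibitor Timp4 (5.31-fold), the muscle cytochrome oxidase subunit Cox7a1 (5.22-fold), the AMP-hydrolysing Nt5c1a (4.98-fold) and the receptor Mrgprh (4.97-fold) completed the 15 largest falls.

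**Figure D2:**
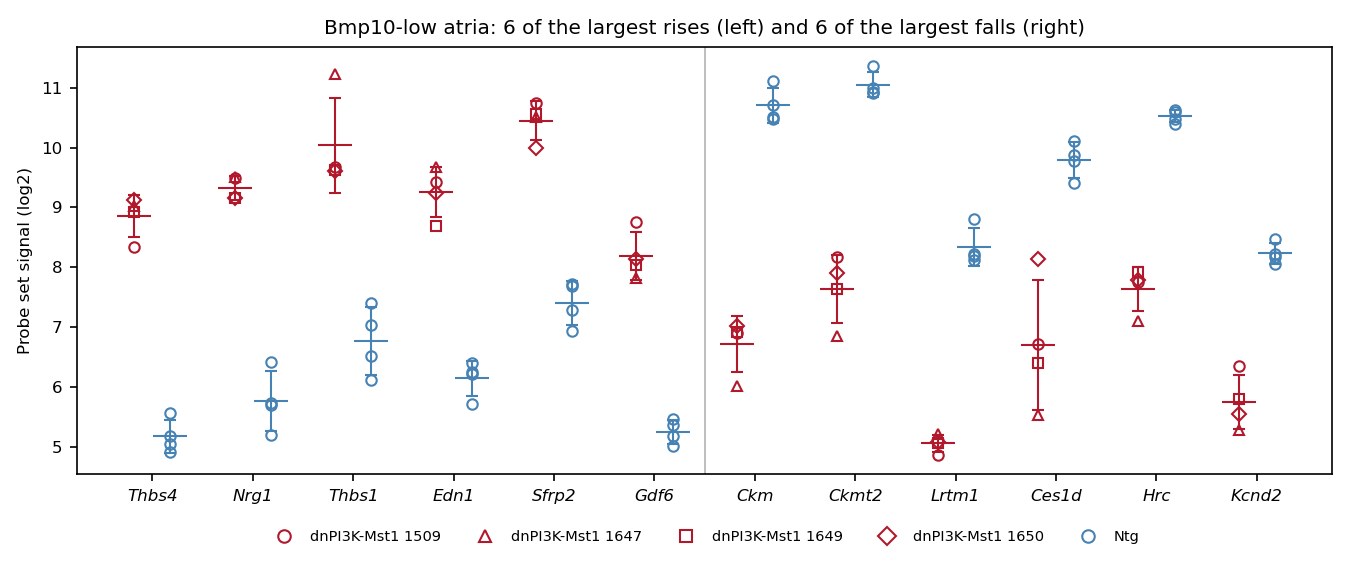
Log2 signal of 6 of the 15 largest rises and 6 of the 15 largest falls in each Bmp10-low array, dnPI3K-Mst1 left of Ntg; points are arrays, horizontal lines means and bars SD over 4 arrays. No dnPI3K-Mst1 array overlaps an Ntg array in these genes, which the choice of genes required, and dnPI3K-Mst1 1647 (triangles) is highest for Thbs1 and lowest for Ckm.

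Nuclear genes of mitochondrial energy supply fell almost without exception. Of 35 tested complex I genes, which code for subunits that take electrons from NADH, 35 fell and 0 rose, with a median of -1.03 log2 against 0.02 for all genes. Among genes of complexes II to V 39 of 41 fell (median -0.90), of the tricarboxylic acid cycle 23 of 24 (median -0.87) and of fatty acid uptake and oxidation 28 of 32 (median -1.06), with 0 higher in each. Genes of the mitochondrial ribosome, which translates the mitochondrion's own messages, fell less: 31 of 33 were lower, with a median of -0.65. Without the 2 arrays with brown fat genes 35, 38, 23, 27 and 31 of the 5 lists were lower.

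Individual members showed how far the groups were apart. Cox7a1 was at 9.40, 8.48, 9.19 and 9.29 log2 in dnPI3K-Mst1 and at 11.50, 11.52, 11.40 and 11.48 log2 in Ntg, where the 4 animals lay within a narrow band. Ndufb8, a complex I subunit, was at 8.29, 7.82, 8.35 and 8.31 log2 in dnPI3K-Mst1 and at 9.65, 9.80, 9.67 and 9.46 log2 in Ntg, a fall of 2.74-fold. In both genes dnPI3K-Mst1 1647 was the lowest array and no dnPI3K-Mst1 array overlapped Ntg. Sdhb, the iron-sulphur subunit of succinate dehydrogenase, fell 2.55-fold, Cycs, the electron carrier cytochrome c, 2.1-fold, Atp5g1, a ring subunit of ATP synthase, 3.01-fold, and Acaa2 and Acadvl, enzymes of beta-oxidation, 2.9-fold and 2.66-fold. By contrast, Cox6a1 and Cox8a, the widely expressed forms of 2 cytochrome oxidase subunits, were 0.24 and 0.11 log2 higher and not called, while Cox8b, the muscle form, fell 3.04-fold. Cox6a1 and Cox8a were singled out after their values were seen. Of 17 genes that regulate mitochondrial genes 7 fell and 0 rose, among them Tfam, the factor that packages and transcribes mitochondrial DNA (1.72-fold), and Rxrg, a nuclear receptor partner (3.38-fold). Of 27 antioxidant and metallothionein genes 6 fell (22.2%, against 12.3% of all genes) and 3 rose (11.1%, against 14.3%). The other 18 were not called, and the median was 0.00 log2. The mitochondrial enzymes Sod2 and Prdx3 fell 2.4-fold and 2.27-fold.

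Creatine and glucose genes were divided. In the creatine and adenylate list 4 of 11 fell (Ckm, Ckmt2, Ak1 and, except with left-labelled controls alone, Ak4) and 1 rose, the creatine transporter Slc6a8 (0.59 log2). In glucose transport and glycolysis 11 of 25 fell and 4 rose, with a median of -0.28. Slc2a4, the insulin-responsive glucose transporter, was at 7.83, 7.58, 7.96 and 8.21 log2 in dnPI3K-Mst1 and at 9.09, 9.06, 9.15 and 9.30 log2 in Ntg. It fell 2.39-fold with no overlap, as did the muscle enolase Eno3 (2.56-fold), Ldhb (2.45-fold) and glycogen synthase Gys1 (2.4-fold). Slc2a1, the insulin-independent transporter, rose by 1.10 log2; it was singled out after its value was seen. Cytosolic ribosomal proteins and the proteasome stayed near the median of all genes: 0 of 31 ribosomal genes were called (limma; 1 at an unadjusted p under 0.05) and 1 of 34 proteasome genes was lower, with medians of 0.00 and -0.03 log2.

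**Figure D3:**
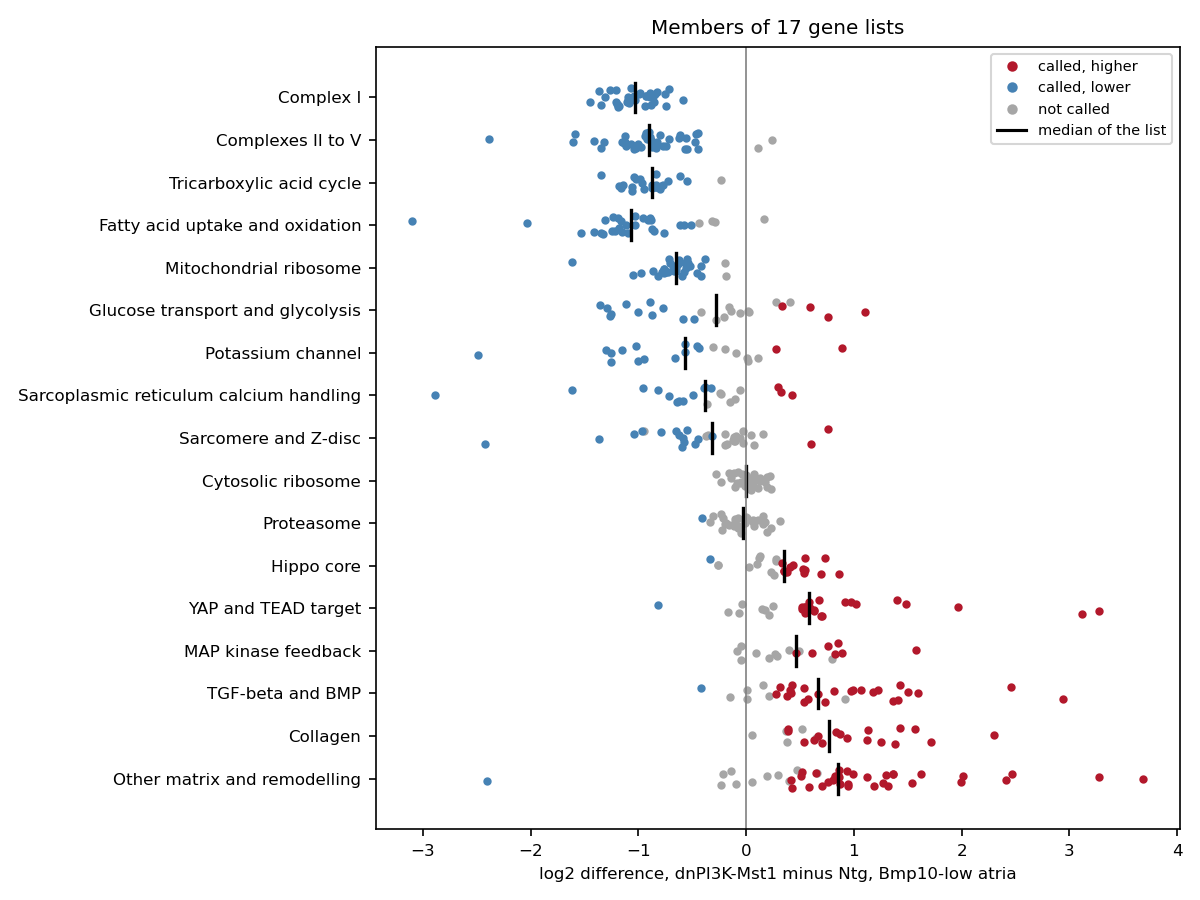
Log2 difference, dnPI3K-Mst1 minus Ntg, of every tested member of 17 gene lists in Bmp10-low atria; each point is a gene, coloured where called at an adjusted p under 0.05, and black bars are list medians. The respiratory chain, citrate cycle and fatty acid lists lie left of 0, with medians between -1.06 and -0.87 log2, the cytosolic ribosome and proteasome lie around 0, and the matrix, TGF-beta and BMP and YAP target lists lie right of 0, with medians between 0.59 and 0.85 log2. Some lists share genes, such as Thbs1 in the other matrix and YAP target lists.

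Genes of atrial repolarisation were mostly lower. Of 21 potassium channel genes 13 fell and 2 rose, with a median of -0.57 log2. Kcnd2, a pore subunit of the transient outward current, was at 6.34, 5.28, 5.79 and 5.55 log2 in dnPI3K-Mst1 and at 8.05, 8.17, 8.47 and 8.23 log2 in Ntg. Kcnd3, its paralogue, fell 2.38-fold, Kcnj3, the acetylcholine-gated channel of atrial muscle, 2.47-fold, Kcnn2, a calcium-activated channel, 2.39-fold, and Kcna5, the atrial ultrarapid channel, 2.01-fold. None of these 5 genes had overlapping groups. Kcna4, another transient outward channel, was 1 of the 2 that rose (0.89 log2; named after its value was seen). Gja5, the connexin of atrial conduction, was at 8.72, 9.02, 9.55 and 9.18 log2 in dnPI3K-Mst1 and at 10.04, 10.30, 9.88 and 10.11 log2 in Ntg, a fall of 1.95-fold, while Gja4, a vascular connexin, rose 2.65-fold. Dsc2, a desmosomal cadherin of the intercalated disc, fell 3.92-fold. Of 5 sodium channel genes tested, 2 fell, Scn4b (3.55-fold) and Scn10a (1.61-fold), and 2 rose. Cacna2d2, an auxiliary calcium channel subunit, rose 4.34-fold, and of the T-type channels Cacna1h fell 1.98-fold while Cacna1g rose 1.59-fold, a call lost with right-labelled controls alone.

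Calcium stores and contractile genes fell in part. In the sarcoplasmic reticulum list 12 of 21 fell and 3 rose, with a median of -0.38 log2. Beside Hrc, the fall was 3.07-fold for Casq1, a calcium buffer, 1.94-fold for Srl, 1.76-fold for sarcolipin (Sln) and 1.64-fold for phospholamban (Pln), the last pair inhibitors of the calcium pump. Of 33 sarcomere and Z-disc genes 14 fell and 2 rose. Tnni3, cardiac troponin I, was at 10.81, 10.41, 11.24 and 10.92 log2 in dnPI3K-Mst1 and at 11.79, 12.01, 11.94 and 11.81 log2 in Ntg, a fall of 2.06-fold, and Tcap, the titin cap, fell 2.58-fold. Myh7, the slow myosin heavy chain often raised in failing ventricle, was at 7.49, 7.25, 7.90 and 7.91 log2 in dnPI3K-Mst1 and at 7.57, 7.84, 7.68 and 7.82 log2 in Ntg, which overlapped (-0.09 ± 0.15 log2, adjusted p = 0.691). The myocyte markers as a list had 6 of 14 members lower and 0 higher, with a mean level of 11.52 to 11.93 log2 in dnPI3K-Mst1 and 12.06 to 12.21 log2 in Ntg. The median of the myocyte markers was -0.19 log2. Tcap, Tnni3 and Pln are themselves on the myocyte list, so its level is not independent of their falls. The part of this lower level in the falls of myocyte genes above was not tested.

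Stress genes of myocytes rose selectively: 13 of 28 were higher and 3 lower. Nppb, the B-type natriuretic peptide, was at 12.33, 12.18, 12.36 and 12.42 log2 in dnPI3K-Mst1 and at 10.94, 11.64, 11.54 and 10.34 log2 in Ntg. It rose 2.31-fold (adjusted p = 0.00308), whereas Nppa, already near the top of the scale, differed by 0.18 ± 0.09 log2 (adjusted p = 0.16). Corin, the protease that activates the atrial peptide precursor, fell 2.09-fold and Furin, a proprotein convertase, rose 1.77-fold. Uchl1, a deubiquitinase, rose 4.81-fold, the intermediate filament gene Nes 3.54-fold, the galectin Lgals3, also a macrophage marker, 3.35-fold and Xirp2, an intercalated disc repair protein, 3.13-fold. Lgals3 was at 9.26, 9.10, 9.38 and 9.18 log2 in dnPI3K-Mst1 and at 7.26, 7.82, 7.72 and 7.14 log2 in Ntg. It is on the macrophage list as well, and which cells its RNA came from was not tested. Tbx20, a transcription factor of the developing heart, was at 10.57, 10.36, 10.83 and 10.59 log2 in dnPI3K-Mst1 and at 8.93, 9.43, 9.06 and 8.99 log2 in Ntg, and rose 2.8-fold with no overlap.

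Most matrix genes on the lists rose. Of 22 collagen genes 17 rose and 0 fell (median 0.77 log2), and of 46 other matrix and remodelling genes 34 rose and 1, Timp4, fell (median 0.85 log2). Col1a1, the main chain of fibrillar collagen, was at 10.47, 12.07, 10.72 and 10.51 log2 in dnPI3K-Mst1 and at 9.76, 9.44, 9.37 and 8.91 log2 in Ntg. The groups did not overlap and dnPI3K-Mst1 1647 was far above the rest; the rise was 2.97-fold (1.57 ± 0.31 log2, adjusted p = 0.00363). Col12a1, a collagen that decorates fibrils under tension, was at 7.18, 7.95, 7.34 and 7.30 log2 in dnPI3K-Mst1 and at 5.29, 5.07, 5.14 and 5.06 log2 in Ntg, a rise of 4.93-fold. Comp and Fn1, a cartilage matrix protein and fibronectin, rose 2.58-fold and 2.49-fold. Activated fibroblast markers rose in 10 of 12 genes with a median of 1.45 log2, and general fibroblast markers in 11 of 15 with a median of 0.52 log2. Scara5, a fibroblast receptor, fell 3.26-fold. The fibroblast and matrix lists share genes, among them Thbs4, Ltbp2, Cilp, Col12a1 and Col1a1, so their counts are not independent. Macrophage markers also stood highest in dnPI3K-Mst1 1647; without that array 16 collagens and 33 other matrix genes were still higher. With only the 2 left-labelled Ntg arrays as controls, the counts were 11 collagens, 22 other matrix genes and 5 fibroblast markers, with medians of 0.68, 0.68 and 0.43 log2.

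Genes of TGF-beta and BMP signalling, which drives matrix deposition and cardiac growth, were higher in 24 of 31 cases and lower in 1. The list holds ligands as well as target genes such as Id2 and Smad6. Gdf6, a BMP family ligand, was at 8.75, 7.83, 8.04 and 8.13 log2 in dnPI3K-Mst1 and at 5.35, 5.46, 5.18 and 5.0 log2 in Ntg. Bmp4, a ligand that signals through SMAD1 and SMAD5, was at 9.54, 8.58, 8.58 and 8.95 log2 in dnPI3K-Mst1 and at 6.68, 6.16, 6.55 and 6.42 log2 in Ntg. Neither gene overlapped between the groups, and dnPI3K-Mst1 1509 was highest for both. Known target genes of BMP signals on the same list also rose. These were the helix-loop-helix inhibitors Id2 (3.03-fold) and Id3 (2.26-fold) and the inhibitory SMADs Smad6 (2.84-fold) and Smad7 (2.33-fold, also a TGF-beta target). Id3 and Smad7 were named after their values were seen. Id1, another target named after its value was seen, differed by 0.01 log2 and was not called. Among 20 modulators of Wnt signals 7 rose and 2 fell: Sfrp2 was at 10.74, 10.50, 10.57 and 9.99 log2 in dnPI3K-Mst1 and at 7.69, 7.28, 7.71 and 6.94 log2 in Ntg, Sfrp1 rose 2.04-fold and Sfrp5, a secreted Wnt inhibitor, fell 3.16-fold.

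Genes of the Hippo pathway and targets of YAP and TEAD were more often higher than lower. Of 25 Hippo core genes 14 rose and 1, Tead1, fell (median 0.35 log2). The 14 include Stk4, the gene of Mst1 itself. Of 28 YAP and TEAD target genes 20 rose and 1, Cav1, fell (median 0.59 log2). Ajuba is counted on both lists, and Tead1 and Cav1 were named after their values were seen. Of the targets, Thbs1 is also on the other matrix list and Edn1 on the endothelin list, so the counts of these lists are not independent. The largest rises among the targets were Thbs1, Edn1, the matricellular gene Ccn1 (3.92-fold) and Nt5e, the enzyme that makes adenosine at the cell surface (2.79-fold). Ccn1 was at 10.37, 11.62, 10.52 and 10.11 log2 in dnPI3K-Mst1 and at 8.20, 10.26, 8.08 and 8.19 log2 in Ntg. The groups overlapped, with Ntg 1657 above the other controls, and the call was lost with right-labelled controls alone (adjusted p = 0.121). Core genes moved less: Ajuba, a LATS-binding scaffold that is itself a YAP target, rose 1.62-fold, Frmd6, an upstream activator, 1.46-fold, and Vgll3, a TEAD cofactor, 1.82-fold.

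TEAD factors bind the letters GGAATG, which were searched on both strands in the RefSeq promoter windows of build GRCm38.p6 (250 bases before to 50 after the start of a gene). Of the 28 target genes 21 had a window, and 10 of these 21 (47.6%) held the motif, against 14.6% of 11985 tested genes with a window, 16.5% of those called higher and 15.65% of those called lower. The list holds known YAP and TEAD targets, and a match describes the letters of the window, not a bound site. 3 windows of genes called higher are shown, with the motif on either strand in capitals: Edn1 at chr13:42301226-42301525 on the plus strand, Ccn1 at chr3:145649936-145650235 and Ajuba, which holds 2 matches, at chr14:54577612-54577911, both on the minus strand.
Edn1: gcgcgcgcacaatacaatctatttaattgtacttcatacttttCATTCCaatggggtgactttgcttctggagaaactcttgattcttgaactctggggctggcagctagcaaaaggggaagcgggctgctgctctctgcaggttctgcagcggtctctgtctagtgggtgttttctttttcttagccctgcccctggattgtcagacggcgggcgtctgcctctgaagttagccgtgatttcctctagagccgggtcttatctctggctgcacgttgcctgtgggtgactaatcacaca
Ccn1: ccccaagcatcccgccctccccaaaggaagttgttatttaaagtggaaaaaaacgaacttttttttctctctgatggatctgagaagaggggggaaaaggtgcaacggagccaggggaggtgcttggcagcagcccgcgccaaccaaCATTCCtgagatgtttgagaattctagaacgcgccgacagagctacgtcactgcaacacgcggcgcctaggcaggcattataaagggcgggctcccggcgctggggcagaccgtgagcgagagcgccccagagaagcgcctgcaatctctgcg
Ajuba: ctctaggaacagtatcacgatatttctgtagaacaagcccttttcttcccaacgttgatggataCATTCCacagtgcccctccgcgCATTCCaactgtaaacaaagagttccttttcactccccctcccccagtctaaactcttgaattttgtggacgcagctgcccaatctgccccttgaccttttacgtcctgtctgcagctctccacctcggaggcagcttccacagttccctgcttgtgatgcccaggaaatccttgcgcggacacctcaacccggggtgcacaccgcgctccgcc
For the energy genes the same was done with TNAAGGTCA, the site of the oestrogen-related receptors that drive mitochondrial genes. It was found in 2 of 118 genes with a window (1.69%), Atp5g3 and Sdhd, against 0.985% of all tested genes and 0.661% of genes called lower.

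Of 15 neuregulin and ERBB genes 6 rose and 4 fell. Beside Nrg1, the ligand Hbegf rose 2.5-fold and Egf fell 2.84-fold. The ligand Ereg was at 6.11, 6.37, 5.58 and 6.18 log2 in dnPI3K-Mst1 and at 4.40, 4.37, 3.99 and 4.16 log2 in Ntg. It was called higher and is counted among the 6. All its Ntg values lay below the filter level of 4.48 log2, so no fold is given. The filter used the mean over all 32 arrays, and Ereg passed it through genotypes where it is high. Its call is thus a description only. Hbegf was at 7.78, 7.61, 7.76 and 7.94 log2 in dnPI3K-Mst1 and at 6.21, 7.08, 6.35 and 6.17 log2 in Ntg. Genes that MAP kinase signals induce and that feed back on them rose in 7 of 17 cases with 0 lower. They were led by the phosphatase genes Dusp4 (2.98-fold) and Dusp6 (1.86-fold), Spred1 (1.81-fold) and Etv5 (1.77-fold). In the Bmp10-high atria of the same animals 13 of the 17 rose, with a median of 0.64 log2 against 0.46 log2 in Bmp10-low atria. In the endothelin and angiotensin list 3 of 11 rose and 4 fell: beside Edn1, the angiotensin-converting enzyme Ace rose 1.95-fold, while the angiotensin receptor Agtr1a fell 2.64-fold and the endothelin receptor Ednrb 1.57-fold, and the angiotensinogen gene was also lower. In PI3K and insulin signalling 6 of 31 rose (19.4%) and 3 fell (9.68%), near the 14.3% and 12.3% of all genes, with a median of 0.01 log2; Igf1r rose 1.79-fold and Grb14, an adaptor that inhibits the insulin receptor, fell 2.41-fold.

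Of 28 immediate early genes 6 rose (21.4%) and 2 fell (7.14%), against 14.3% and 12.3% of all genes. The count of rises was 13 without Ntg 1657 and 3 with right-labelled controls alone. It was 4 without Ntg 1662, Ntg 1834 or the 2 arrays with brown fat genes. In the Bmp10-high atria of the same animals 19 of the 28 rose and 1 fell, with a median of 0.67 log2 against 0.45 log2 in Bmp10-low atria. Atf3, the stress-induced transcription factor, was at 8.91, 8.55, 9.42 and 9.43 log2 in dnPI3K-Mst1 and at 5.85, 10.17, 5.72 and 5.93 log2 in Ntg. Ntg 1657 was above all other 7 arrays, and Atf3, named after its values were seen, was not called (2.16 ± 0.81 log2, adjusted p = 0.0739). Egr2, a growth-induced factor, was at 6.03, 9.29, 7.16 and 6.73 log2 in dnPI3K-Mst1 and at 5.02, 6.04, 5.70 and 5.52 log2 in Ntg, the groups overlapping and dnPI3K-Mst1 1647 far above the rest. It was called (1.74 ± 0.54 log2, adjusted p = 0.0357), with a difference of 1.07 log2 without dnPI3K-Mst1 1647, but not without dnPI3K-Mst1 1649, Ntg 1301, Ntg 1662 or Ntg 1834, nor with controls of 1 side label. Myc rose 1.79-fold and Rgs2, a brake on Gq signals, fell 2.28-fold. In the integrated stress and unfolded protein lists 12 of 31 rose and 4 fell. Among those called, Pdia4, a chaperone of the endoplasmic reticulum, rose 1.57-fold and Aldh1l2, a mitochondrial folate enzyme, fell by 1.11 log2. Without the 2 arrays with brown fat genes the counts were 4 and 1.

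Of 24 macrophage and monocyte markers 4 rose (16.7%) and 3 fell (12.5%), shares close to the 14.3% and 12.3% of all genes. The largest of these rises was in Lgals3, also counted above among the myocyte stress genes. Cx3cr1, the fractalkine receptor, was at 7.43, 8.65, 7.03 and 7.05 log2 in dnPI3K-Mst1 and at 6.43, 6.51, 6.79 and 6.32 log2 in Ntg, and its ligand Cx3cl1 rose 2.36-fold. Folr2, a marker of resident macrophages, fell 1.83-fold. The count of higher macrophage markers was 9 without dnPI3K-Mst1 1650, 8 without dnPI3K-Mst1 1649, 7 without dnPI3K-Mst1 1647, 2 without Ntg 1657 or Ntg 1662 and 1 without Ntg 1834, and Cx3cr1 lost its call without Ntg 1301, 1657 or 1834. Its difference was 1.03 log2 with all arrays and 0.66 log2 without dnPI3K-Mst1 1647, its highest array.

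Of 16 interferon and MHC class II genes 6 rose, 4 of them the antigen presentation genes H2-Ab1, H2-Aa, H2-Eb1 and Cd74. H2-Ab1 was at 8.86, 9.65, 7.90 and 8.31 log2 in dnPI3K-Mst1 and at 6.96, 6.80, 7.58 and 8.26 log2 in Ntg, so the groups overlapped. The count of 6 was 2 without dnPI3K-Mst1 1509 or Ntg 1657 and 3 without Ntg 1301 or Ntg 1662 or with right-labelled controls alone. All 4 antigen presentation genes lost their call without dnPI3K-Mst1 1509, Ntg 1301 or Ntg 1657. Lymphatic endothelial markers rose in 3 of 5 genes, with Mmrn1 at 9.05, 8.18, 8.31 and 8.49 log2 in dnPI3K-Mst1 and at 6.54, 5.42, 5.53 and 5.80 log2 in Ntg, and Flt4, the VEGF-C receptor, up 1.68-fold. In the Bmp10-high atria of the same animals 1 of the 5 rose and 2 fell. The list median was -0.04 log2 there, against 0.49 log2 in Bmp10-low atria. Of 15 general endothelial markers 4 rose (26.7%) and 2 fell (13.3%), against 14.3% and 12.3% of all genes, with a median of -0.06 log2. Vwf rose 2.35-fold and Kdr, the main VEGF receptor, fell 1.72-fold. Smooth muscle genes were split: 7 of 14 rose (50%) and 2 fell (14.3%, against 12.3% of all genes). The contractile genes Cnn1 (4.81-fold) and Tagln (3.45-fold) were higher and the pericyte genes Abcc9 (1.91-fold) and Rgs5 (1.77-fold) lower. Of 9 adipocyte markers 2 fell (22.2%, against 12.3% of all genes). Dgat2 was at 6.95, 6.21, 6.79 and 9.70 log2 in dnPI3K-Mst1 and at 9.94, 8.91, 9.29 and 9.63 log2 in Ntg, with dnPI3K-Mst1 1650 among the controls. Its difference was -2.03 log2 with all arrays and -2.63 log2 without the 2 arrays with brown fat genes, and its call was lost without dnPI3K-Mst1 1509, 1647 or 1649 or without Ntg 1301, 1662 or 1834.

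Whether the genotype difference was the same in both atria of these animals was tested on the within-animal difference, Bmp10-low minus Bmp10-high, which removes what an animal's atria share. In the Bmp10-high atria 3672 genes (24.1%) were called, 1941 higher (12.8%) and 1731 lower (11.4%). The genotype difference itself differed between the atria for 87 genes in the upward direction (0.572%) and 61 in the downward direction (0.401%; limma, adjusted p under 0.05), and 1736 genes (11.4%) passed an unadjusted p under 0.05. Hamp, the gene of the iron hormone hepcidin, differed most. In Bmp10-low atria it was at 8.53, 7.77, 9.23 and 8.99 log2 in dnPI3K-Mst1 and at 7.0, 6.71, 6.08 and 5.84 log2 in Ntg. In Bmp10-high atria it was at 8.86, 9.09, 8.98 and 9.56 log2 in dnPI3K-Mst1 and at 10.45, 10.50, 11.12 and 11.02 log2 in Ntg. The genotype difference was thus 2.22 log2 in Bmp10-low atria and -1.65 log2 in Bmp10-high atria, and these differed by 3.87 ± 0.39 log2 (SE, adjusted p = 0.000298). Adm, the vasodilator adrenomedullin, was 1.69 log2 higher in dnPI3K-Mst1 in Bmp10-low atria and -0.31 log2 in Bmp10-high atria, and Cacna2d2 2.12 and 0.20 log2.

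Other genes had a lower genotype difference in Bmp10-low than in Bmp10-high atria, the Bmp10-low value standing first in each pair. These were Ifi205 (-2.64 against -0.41 log2), Timp4 (-2.41 against -0.21), the eosinophil chemokine Ccl11 (-1.94 against 0.09), Lrtm1 (-3.28 against -1.37) and Inmt, a methyltransferase (-2.23 against 0.14). Ccl11 was at 5.23, 5.20, 5.10 and 5.39 log2 in dnPI3K-Mst1 and at 7.53, 7.11, 6.63 and 7.42 log2 in Ntg, and in Bmp10-high atria all 8 arrays lay between 4.86 and 5.35 log2. Single members of other lists were called in the same direction, namely Dsc2 (-1.97 against -0.55), Scn4b (-1.83 against -0.55), Hrc (-2.89 against -1.73), Mylk4 (-2.51 against -0.89) and Kcna5 (-1.01 against -0.28). Per list this was 1 of 18 connexin and disc, 1 of 5 sodium channel, 1 of 21 sarcoplasmic reticulum and 1 of 21 potassium channel genes, while Cacna2d2 was called in the opposite direction. Timp4 lost its call with a mean-variance trend (adjusted p = 0.375), and Inmt without dnPI3K-Mst1 1509, dnPI3K-Mst1 1649, Ntg 1301 or Ntg 1834. Of 35 complex I genes, 22 collagens and 28 YAP and TEAD targets 0 were called in this limma test (11, 7 and 11 at an unadjusted p under 0.05), with median differences of -0.20, 0.21 and 0.03 log2.

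Of the lists, the TGF-beta and BMP genes held the most members by count that differed between atria. In this list 6 of 31 genes rose more in Bmp10-low atria: Gdf6, Bmp4, Id2, Smad6, Smad7 and Id3. By share, some shorter lists stood higher, such as lymphatic endothelium with 2 of 5 and endocardium with 1 of 4. Gdf6 rose by 2.94 log2 in Bmp10-low and 1.25 log2 in Bmp10-high atria, Bmp4 by 2.46 and 1.67 log2, Id2 by 1.6 and 0.67 log2, and Smad6 by 1.5 and 0.50 log2. In dnPI3K-Mst1 Id2 was at 9.83, 9.95, 9.27 and 9.60 log2 in Bmp10-low atria and at 9.90, 9.97, 9.79 and 9.73 log2 in Bmp10-high atria, while in Ntg it was at 8.38, 8.03, 8.02 and 7.82 log2 in Bmp10-low atria and at 9.62, 9.15, 8.80 and 9.14 log2 in Bmp10-high atria. The Ntg atria differed and the dnPI3K-Mst1 atria were close to one level. Gdf6 differed in the other way: both Ntg atria were between 5.0 and 5.46 log2, and in dnPI3K-Mst1 the Bmp10-low atria were at 7.83 to 8.75 log2 and the Bmp10-high atria at 6.20 to 6.64 log2. Id3 was called at an adjusted p of 0.0301 and lost its call without any of 1509, 1647, 1650, 1301 or 1657.

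**Figure D4:**
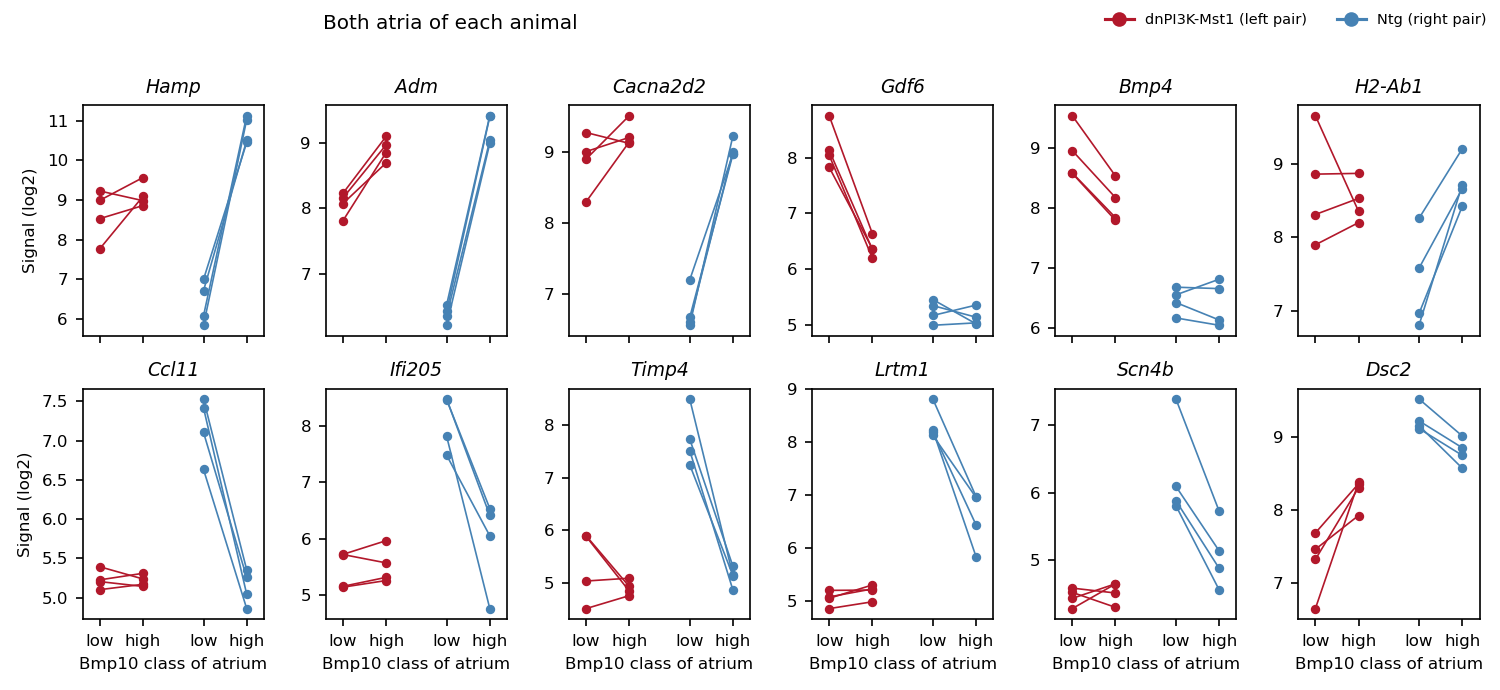
Log2 signal in both atria of each animal for 12 genes whose genotype difference differed between Bmp10-low and Bmp10-high atria; lines join the atria of an animal, dnPI3K-Mst1 as the left pair and Ntg as the right pair of each panel. For Hamp the Ntg atria lie between 5.84 and 7.0 log2 (low) and 10.45 and 11.12 log2 (high), while both atria of dnPI3K-Mst1 lie between 7.77 and 9.56 log2.

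Over the 148 genes that differed, 117 (79.1%) had a smaller difference between the atria in dnPI3K-Mst1 than in Ntg, against 59.3% of all 15219 genes. The median size of the atrial difference of these 148 genes was 0.25 log2 in dnPI3K-Mst1 and 0.74 log2 in Ntg, against 0.071 and 0.095 log2 over all genes. Of the 87 that rose more in Bmp10-low atria, 79 were lower there than in Bmp10-high atria in Ntg, and of the 61 that fell more, 59 were higher there; of all 15219 genes 7712 were lower and 7507 higher. The genes were chosen by this same contrast, so these shares describe them and test nothing.

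Against mice with Mst1 alone, the Bmp10-low atria of dnPI3K-Mst1 differed in 132 of 15219 genes (0.867%), 91 higher (0.598%) and 41 lower (0.269%). Stk4 was at 8.31, 8.27, 8.19 and 8.25 log2 in Mst1 animals 1466, 1838, 1839 and 1840, which the dnPI3K-Mst1 arrays overlapped. Sfrp2 was higher by 1.67 ± 0.25 log2 (adjusted p = 0.0245), with Mst1 arrays at 9.57, 8.55, 8.28 and 8.73 log2. Fmod, a collagen-binding proteoglycan, was at 8.92, 8.85, 8.71 and 8.63 log2 in dnPI3K-Mst1 and at 7.77, 7.44, 7.27 and 7.84 log2 in Mst1. Ckmt2 differed by -1.17 log2 and Hrc by -0.89 log2, both called. The count of calls changed with the array left out, and the cause was not tested. By limma 0 genes were called without Mst1 1838 or without Mst1 1839 (2166 and 1849 at an unadjusted p under 0.05). The count was 1 without Mst1 1840, 7 without dnPI3K-Mst1 1509 and 329 without Mst1 1466. Of 35 complex I genes 0 were called by limma in this comparison (16 at an unadjusted p under 0.05), with a median of -0.30 log2.

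Against mice with dnPI3K alone, 2197 genes were called (14.4%), 1157 higher (7.6%) and 1040 lower (6.83%). Both comparisons share the 4 dnPI3K-Mst1 arrays with the main one, so their values are given side by side and are not independent. Thbs4 was at 5.64, 5.45, 5.45 and 5.34 log2 in dnPI3K animals 1507, 1648, 1660 and 3241, and its difference in dnPI3K-Mst1 was 3.38 log2 against dnPI3K, 3.68 log2 against Ntg and -0.59 log2 against Mst1 (the last not called, adjusted p = 0.105). Ckm differed by -3.30 log2 against dnPI3K, -3.99 against Ntg and -0.42 against Mst1 (not called). Nrg1 was at 8.14, 8.17, 7.34 and 8.33 log2 in dnPI3K and 8.62, 8.72, 8.50 and 9.0 log2 in Mst1, and its difference was 1.33 log2 against dnPI3K and 0.62 log2 against Mst1 (adjusted p = 0.052). Inmt (-3.34 log2), the desaturase gene Scd4 (-2.94 log2) and the delayed rectifier channel Kcnh7 (-2.55 log2) were among the largest falls against dnPI3K. Of the 35 complex I genes 35 were lower against dnPI3K, with a median of -0.70 log2, and 15 of 22 collagens were higher, with a median of 0.77 log2.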

How the data were processed

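Each atrium's RNA was hybridised to 1 Affymetrix Mouse Gene 1.0 ST array. The deposited values are log2 probe set signals, and the submitters' processing notes name Affymetrix Expression Console and PLIER; further scaling is not given in the sources used here. Of 35512 probe sets, 21789 carried 1 gene symbol, 1621 several and 12102 none, and only the first were used, with the brightest probe set per gene (999 of 19938 genes had several). Genes with a mean over all 32 arrays at or above the 30th percentile (4.48 log2) were kept, 15219 in all. A gene low in 1 group could thus be kept through arrays where it is high.

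Groups came from the labels, and the Bmp10 class from each array's Bmp10 signal. limma 3.58.1 in R 4.3.3 (lmFit and eBayes with trend) compared 4 against 4 arrays, with Benjamini-Hochberg adjustment over all genes; called means an adjusted p under 0.05. The atria were compared on within-animal differences, without trend, the labels giving the animal of each array. No 2 arrays were duplicates (highest correlation 0.990). The members and gene lists were chosen with earlier results of these data known.

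Named genes were the 15 largest rises and falls among called genes whose arrays did not overlap, up to 4 called members of each of 57 lists (all members of short ones), the 6 largest in each direction between atria and the 8 largest in each direction against single transgenics; exceptions are marked. Nothing says that animals of a group differ in litter or day, and 4 arrays per group limit precision. Alternatives varied the normalization, filter, probe set choice, variance model, control side label and arrays left out; that without the brown fat arrays was added after seeing the data. On simulated data for the comparison with Ntg (15219 genes, 200 changed), the fit called 38.5% of genes given a change of 0.5 log2, 94% at 1 log2 and 99% at 2 log2. The adjusted p depends on how many genes change, and 4042 were called in the data, so these shares do not give the recovery there. Some genes are not reported here.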

Additional observations from a re-analysis of the deposited data

Results flagged for a closer look

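Among 322 groups of 4 arrays, 21 held an array far from the other 3, where chance gives about 1 in 20. Of these, 13 were dnPI3K-Mst1 1647: Thbs1 (11.23 log2), Col1a1 (12.07), Ptprc (8.55) and Sfrp5 (4.80) were higher there than in the other dnPI3K-Mst1 arrays, and Ckm (6.02), Mrgprh (4.35), Ndufb8 (7.82), Ak1 (8.91), Tfam (6.21), Pln (11.79), Myl3 (6.14), Grb14 (8.40) and Herpud1 (9.61) were lower. dnPI3K-Mst1 1509 was high for Hand2 (7.40) and dnPI3K-Mst1 1650 for Slc36a2 (7.64). Ntg 1662 was high for Ltbp2 (6.07) and Lrtm1 (8.81), Ntg 1657 high for Ccn1 (10.26) and low for Ndufs4 (9.83), and Ntg 1834 low for Agtr1a (7.13) and Vgll3 (5.70).

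The genotype difference, dnPI3K-Mst1 minus Ntg, differed between the atria of the same animals for 38 named genes (limma, adjusted p under 0.05). The Bmp10-low minus the Bmp10-high value was positive for Hamp (3.87 log2), Penk (2.24), Adm (2.0), Hamp2 (1.96), Cacna2d2 (1.915), Tc2n (1.91), Gdf6 (1.69), H2-Ab1 (1.54), Cd74 (1.40), Frzb (1.39), H2-Eb1 (1.23), Cx3cr1 (1.13), Piezo2 (1.08), Smad6 (1.01), Tbx20 (0.98), Ecrg4 (0.96), Postn (0.96), Id2 (0.93), Rgs6 (0.91), Bmp4 (0.79), Flt4 (0.78), Smad7 (0.725) and Id3 (0.68). It was negative for Plet1 (-2.40 log2), Inmt (-2.36), Ifi205 (-2.23), Timp4 (-2.20), Ccl11 (-2.03), Lrtm1 (-1.915), Mylk4 (-1.62), Dsc2 (-1.42), Scara5 (-1.35), Scn4b (-1.28), Hrc (-1.16), Rgs5 (-0.91), Folr2 (-0.87), Ace (-0.73) and Kcna5 (-0.72).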

How the results depend on the processing

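For dnPI3K-Mst1 against Ntg, 4042 genes were called; leaving out 1 array gave 3213 to 3831 (1659 to 2123 higher, 1495 to 1708 lower), right-labelled controls alone 2377 (1303 higher, 1074 lower), left-labelled controls alone 2427 (1152 higher), and leaving out the 2 arrays with brown fat genes 2922. These settings have fewer arrays. Between atria, 148 were called with the animal as replicate block and 55 (32 higher, 23 lower) with no replicate block; leaving out 1 animal gave 92 to 144 (52 to 83 higher, 40 to 62 lower), lowest without dnPI3K-Mst1 1509. Against Mst1, fitting all 16 Bmp10-low arrays gave 388 (243 higher, 145 lower), and leaving out 1 array 0 to 329 (0 to 193 higher, 0 to 136 lower), the arrays being named beside that result; the cause was not tested. Against dnPI3K, leaving out 1 array gave 1528 to 2252. Of 161 named genes, 21 lost their call with right-labelled controls alone, 13 with left-labelled ones and 2 to 12 per left-out array. Myh7, not called with all arrays (-0.09 log2), came to 0.0080 log2 with left-labelled controls, between -0.18 and 0.035 with 1 array left out, 0.15 in Bmp10-high atria and 0.028 in the mean of both atria. In Bmp10-high atria the direction turned for Hamp (-1.65 log2), H2-Aa (-0.30), H2-Eb1 (-0.29), H2-Ab1 (-0.26), Cd74 (-0.26), Cx3cr1 (-0.099), Postn (-0.089), Flt4 (-0.037) and Rgs5 (0.084). No paired analysis was possible for genotypes because no animal carries more than 1.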
